A study of Mus musculus with 24 samples.

Results

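The cortex of mice labelled Abca7 was compared with that of mice labelled control over both stimuli at once, as the mean of the genotype difference without lipopolysaccharide (LPS) and the genotype difference under LPS. All 24 libraries of the series entered the comparison, 12 per genotype label. Of 43346 genes counted, 22096 had at least 10 reads in at least 6 libraries and were tested. The series design text describes the labelled mice as heterozygous for Abca7. The mice fall into 4 groups of 6: control without LPS, aged 55 to 57 days, control with LPS, aged 54 to 56 days, labelled Abca7 without LPS, aged 55 to 58 days, and labelled Abca7 with LPS, aged 54 to 56 days. The strain, sex, mutated exons of Abca7, LPS dose, injection route and the interval between injection and dissection were not given in the sources used here. Library titles carry different numbers, which were read as different animals; where this does not hold, the p-values measure a spread that may be technical.

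ABCA7 is a membrane transporter of the ATP-binding cassette A family. It moves phospholipids across membranes and is linked to phagocytosis, and loss-of-function variants of human ABCA7 are associated with Alzheimer disease. LPS, a glycolipid of the bacterial cell wall, is bound by CD14 and the TLR4 complex and starts NF-kB and interferon signalling in microglia, astrocytes and blood vessels of the brain. A genotype difference that does not depend on LPS has the same size in both stimuli, whereas the average also takes in differences that appear mainly in 1 stimulus.

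Total counts per library lay between 48149131 and 75741388 and did not differ between genotype labels beyond the spread between libraries (two-sided exact permutation p = 0.171 without LPS and 0.550 under LPS, n = 6 per group; 0.256 and 0.733 adjusted over 24 such comparisons of library measures). Repeat loci of ribosomal RNA took 5.88% to 18.7% of counts. No library column was a copy of another, and the correlation of log2 CPM, reads of a gene relative to the scaled library total, within a group was 0.9843 to 0.9938. Libraries that stood apart from their groups included labelled Abca7 LPS replicate 4, in which the LPS-responsive gene Sbno2 was at 31.8 CPM against 54.9 or more in the other 5, and control LPS replicate 4, described with the chromosome 10 genes below; others did so in choroid plexus markers, given with these. Replicate numbers only name libraries and pair nothing.

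The smallest p-values of the comparison belonged to Gm9855 and Tdg, both on chromosome 10, and Gm9855 is a near copy of part of Tdg. Tdg encodes thymine DNA glycosylase, a base excision repair enzyme that removes mispaired thymine and oxidised forms of methylcytosine from DNA. Gm9855 is annotated as a processed pseudogene, a copy of an mRNA inserted elsewhere in the genome, and its whole annotated length of 1194 bases aligned to the Tdg transcript with 9 differences (99.25% identity). Of the aligned bases, 1191 lie in the coding sequence of Tdg. A stretch of 90 bases within 1 exon of the Tdg coding sequence is shown, because reads can be told apart only where a difference falls. Capitals mark the 3 bases that differ: A855G, G877A and G879C, with the base of Tdg first, positions counted from 1 at the first base of Gm9855, and the base of Gm9855 last. Tdg is at chr10:82647263-82647352 on the plus strand (exon 8), Gm9855 at chr10:42054423-42054512 on the minus strand, both from GENCODE M21 transcripts on GRCm38 (mm10).
Tdg: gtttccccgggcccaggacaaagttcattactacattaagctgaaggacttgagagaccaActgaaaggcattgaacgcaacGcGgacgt
Gm9855: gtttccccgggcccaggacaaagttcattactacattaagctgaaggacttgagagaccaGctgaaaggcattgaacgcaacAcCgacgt
The copies are identical for up to 756 bases in a row, between A98C and A855G, a run that reaches into the printed stretch. A98C, T993C, T1056C, G1084A, A1090G and G1101A lie outside that stretch. Of the 50-base sequences of Gm9855, 85.3% also occur in transcripts of another gene and 76.5% in those of Tdg. Of the 50-base sequences of Tdg, 41.2% occur elsewhere and 29.4% in Tdg-ps. The treatment of reads with several matches is not given in the sources used here, so counts of either gene are uncertain where the copies are identical.

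The averaged genotype difference was carried by few genes, and nearly all of them moved little. With edgeR's quasi-likelihood test and Benjamini-Hochberg adjustment, 53 of 22096 genes had an adjusted p below 0.05 (0.240%), of which 31 were higher (0.140%) and 22 lower (0.0996%) in the labelled mice. An unadjusted p below 0.05 was found for 2414 genes (10.9%), 1237 higher (5.60%) and 1177 lower (5.33%). The higher genes differed by 0.10 to 3.19 on the log2 scale with a median of 0.20, and 26 of the 31 by less than 0.3. The lower genes differed by 0.09 to 0.43 with a median of -0.18, and 20 of the 22 by less than 0.3. Those that passed were 43 protein-coding genes, 4 long intergenic RNAs and 6 genes of other annotated types, 1 of each.

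Every gene that passed had the same sign in both stimuli, but no gene separated the labels in all libraries. All 31 higher and all 22 lower genes kept their sign in both, a direction that averaging the stimuli favours. The 12 labelled and 12 control libraries did not separate without overlap for any of the 22096 genes (0%). Within a stimulus, 6 and 6 libraries did not overlap for 57 genes without LPS (0.258%) and 95 under LPS (0.430%). Among the 53, 9 separated without LPS (3 higher and 6 lower), 15 under LPS (9 higher and 6 lower), and none in both. Of all genes tested, 1 separated in both stimuli in the same direction (0.00453%). It was Spag9, a scaffold of JNK signalling on chromosome 11, chosen after its values were seen. Its level was 448.3, 454.2 and 487.5 CPM (lowest, median and highest of 6) in control libraries and 424.2, 435.5 and 445.0 in labelled libraries without LPS, and 468.1, 469.4 and 475.9 against 435.9, 450.4 and 463.3 under LPS, yet its difference of -0.07 ± 0.02 (SE) did not pass (adjusted p = 0.0723).

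**Figure D1:**
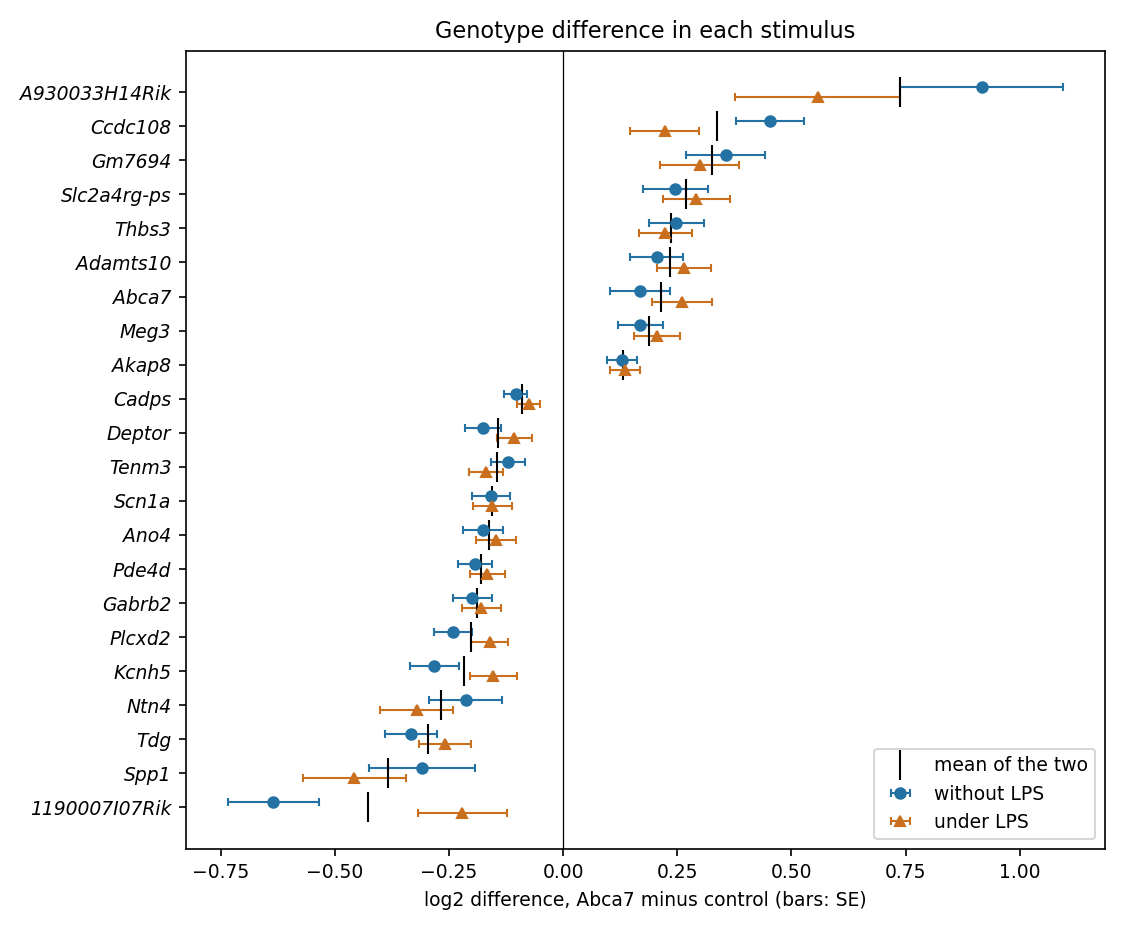
The horizontal axis gives the log2 difference between labelled Abca7 and control libraries, without LPS (circles) and under LPS (triangles), with SE bars and a black tick at their mean, for named genes that passed (vertical axis) other than Gm9855, whose differences of 4.31 and 2.07 lie beyond the axis. Both stimuli lie on the same side of 0 for every gene drawn, with the widest gaps for 1190007I07Rik (-0.64 and -0.22) and A930033H14Rik (0.92 and 0.56).

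No gene passed the test of whether the genotype difference itself depended on LPS. The interaction had 0 genes with an adjusted p below 0.05 in edgeR (0%), 752 with an unadjusted p below 0.05 (3.40%), and 0 with DESeq2. Fits of the 12 libraries of each stimulus, which share no library, called 3 genes without LPS (0.0136%) and 0 under LPS (0%), with 1289 (5.83%) and 1784 (8.07%) genes at an unadjusted p below 0.05. The 3 were Gm9855, Tdg and 1190007I07Rik. In the LPS libraries alone, edgeR gave Gm9855 a difference of 2.06 ± 0.56 (adjusted p = 0.428), Tdg one of -0.26 ± 0.06 (adjusted p = 0.422) and 1190007I07Rik one of -0.22 ± 0.12 (adjusted p = 0.654), all with the sign found without LPS. Of these 3, 2 had an unadjusted p below 0.05 there. Without LPS the adjusted p from edgeR was 6.23e-09, 0.0372 and 0.00520 in that order.

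Chromosome 10, which carries Abca7, held more of the genes that passed than any other chromosome. On it 7 of 989 tested genes passed (0.708%), against 46 of 21107 on all others (0.218%), so 4.48% of the tested genes gave 13.2% of the calls. Where alternatives called more genes, chromosome 10 had a smaller share of them: 9 of 115 with age as a factor (7.83%), 19 of 298 with the DESeq2 test (6.38%), 19 of 299 with Ttr in the model (6.35%) and 32 of 553 with surrogate variables (5.79%). Leaving out 1 library gave 4 to 11 calls on chromosome 10. In the main fit chromosome 17 followed with 6 of 1028 (0.584%). Chromosome 12 had 5 of 791 (0.632%), chromosome 5 had 5 of 1307 (0.383%) and chromosome 2 had 5 of 1879 (0.266%). X had 4 of 804 (0.498%) and chromosome 11 had 4 of 1787 (0.224%). The shares on chromosomes 12 and 17 were thus close to that on chromosome 10. Chromosomes 4, 6, 18 and Y had none. The 7 were Gm9855, Tdg, 1190007I07Rik, A930033H14Rik, Ano4, Ntn4 and Abca7 itself, 3 higher and 4 lower. They were spread over the chromosome, with starts from 37.9 Mb before Abca7 (Gm9855) to 13.6 Mb after it (Ntn4). Gm9855 and Tdg share sequence, so their calls may not be independent.

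**Figure D2:**
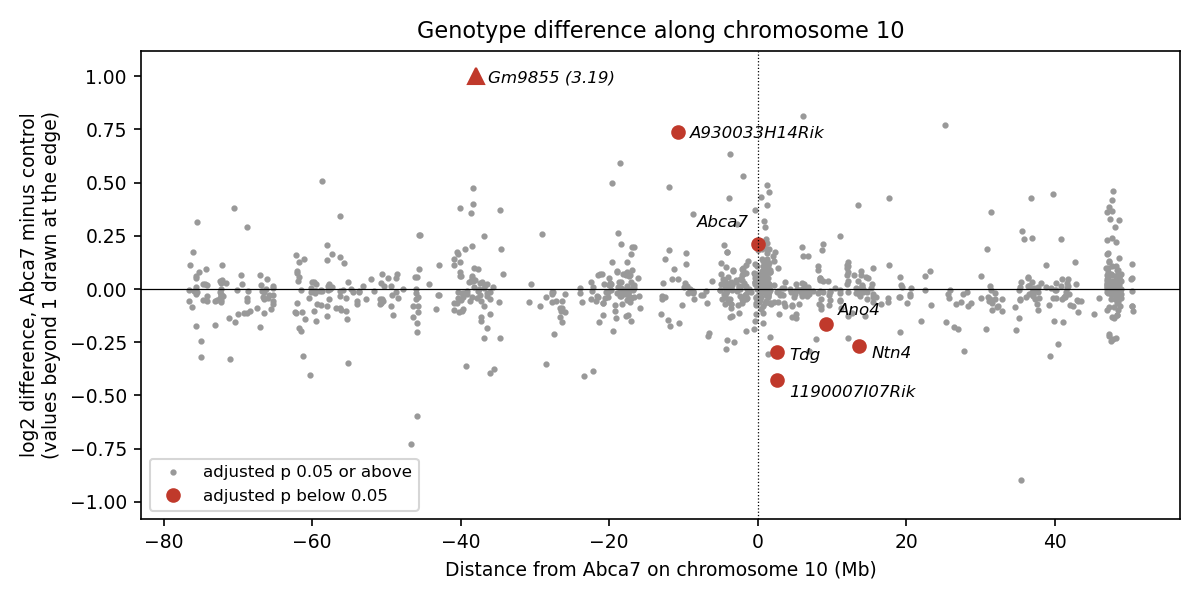
The vertical axis gives the log2 genotype difference of each tested gene on chromosome 10. The horizontal axis gives the distance of its midpoint from that of Abca7 in Mb. Large red symbols mark the 7 genes with an adjusted p below 0.05. By their starts these 7 lie from 37.9 Mb before to 13.6 Mb after Abca7, and Gm9855, at 3.19, is drawn at the upper edge.

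Gm9855 was near the limit of detection in control libraries and not in labelled ones. Without LPS it was at 0.0355, 0.109 and 0.128 CPM (lowest, median and highest of 6) in control libraries, 2 to 8 reads each, and at 1.69, 2.05 and 2.42 CPM in labelled libraries, 94 to 139 reads. Under LPS it was at 0.0535, 0.213 and 1.97 CPM in control and at 1.63, 2.08 and 2.5 CPM in labelled libraries. The groups did not overlap without LPS. Under LPS they overlapped through a single library, control LPS replicate 4, whose 1.97 CPM (151 reads) lay within the range of the labelled libraries, while the other 5 control libraries had 3 to 14 reads. The averaged difference was 3.19 ± 0.37 (adjusted p = 7.20e-05), and 3.99 without that library.

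Tdg fell in the labelled mice by a smaller amount. It was at 26.0, 30.8 and 31.7 CPM in control and 22.0, 24.2 and 25.1 CPM in labelled libraries without LPS, which did not overlap. Under LPS the values were 23.9, 27.2 and 29.7 against 20.8, 22.1 and 25.2 CPM, with the lowest control value again in control LPS replicate 4. Tdg fell by 0.30 ± 0.04 (adjusted p = 0.00102, n = 12 per label). Exact permutation p-values were 0.00216 without LPS, the smallest that 6 against 6 allow, and 0.0108 under LPS (0.0173 and 0.0288 adjusted over the 24 library measures). Tdg was picked for its small p in these same libraries, so low values were favoured and add no support. The 24 measures include Tdg, Gm9855 and Meg3, named for their small p, which can lower the adjusted values of the other measures. Part of Tdg's span overlaps that of Glt8d2.

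Since reads could be assigned to either copy, the pair was also summed, a measure chosen after seeing the data. The sum for Tdg and Gm9855 was at 26.1, 30.9 and 31.8 CPM in control and 23.7, 26.2 and 27.4 CPM in labelled libraries without LPS (exact permutation p = 0.00866, adjusted over the library measures 0.0260). Under LPS it was at 25.3, 27.5 and 30.0 against 22.8, 24.2 and 27.7 CPM (exact permutation p = 0.0368, adjusted 0.0679). The sum was lower in the labelled groups on both occasions, with overlapping ranges. The share of the pair's CPM assigned to Gm9855 was 0.116% to 0.464% in control and 6.56% to 9.01% in labelled libraries without LPS, and under LPS 0.212% to 0.941% in 5 control libraries, 7.63% in control LPS replicate 4 and 7.05% to 10.1% in labelled libraries.

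Of the other chromosome 10 genes, 1190007I07Rik, a protein-coding gene close to Tdg, fell by 0.43 ± 0.07 (adjusted p = 0.00546). It was at 4.36, 4.70 and 4.85 CPM in control and 2.55, 3 and 3.34 CPM in labelled libraries without LPS, with no overlap, and at 3.18, 4.57 and 4.76 against 2.93, 3.78 and 4.32 CPM under LPS. The 3.18 CPM belonged to control LPS replicate 4; the other 5 control libraries were at 4.24 CPM or more. For Gm9855, Tdg and 1190007I07Rik alike, that library had the control LPS value farthest toward the labelled group, and the differences of these 3 genes without it were 3.99, -0.31 and -0.47.

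A930033H14Rik, which lies within the span of Rhobtb1, rose by 0.74 ± 0.13 (adjusted p = 0.00974). Without LPS it was at 1.41, 1.72 and 2.16 CPM in control and 1.59, 3.45 and 4.44 CPM in labelled libraries. Under LPS it was at 1.43, 1.59 and 1.89 against 1.35, 2.52 and 3.08 CPM. Here 10 of the 12 labelled libraries lay above the control median and the other 2 did not: labelled Abca7 replicate 1 without LPS (1.59 CPM) lay in the control range, and labelled Abca7 LPS replicate 4 (1.35 CPM) below every control library. The difference was 0.81 without the first and 0.80 without the second.

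**Figure D3:**
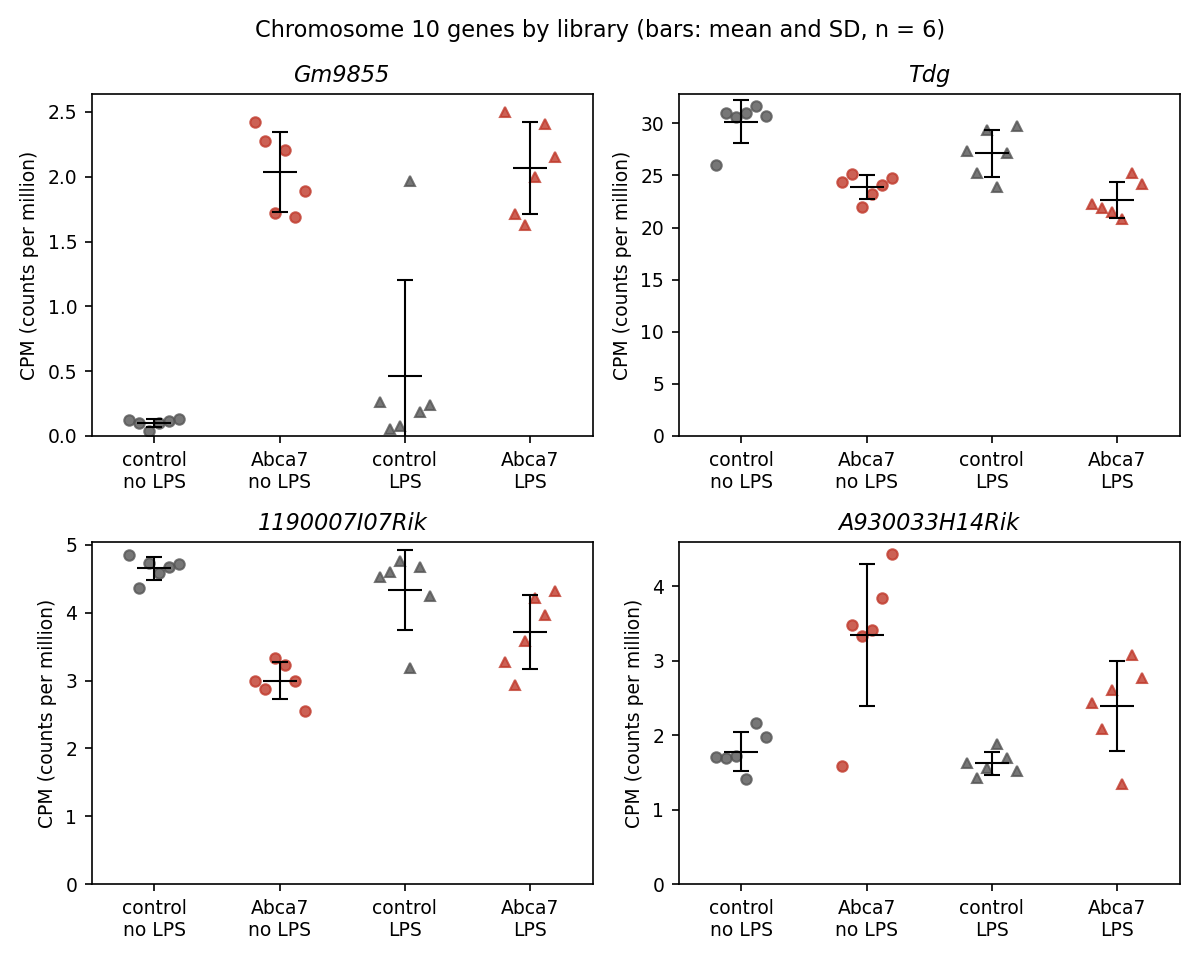
Each panel plots the CPM of a chromosome 10 gene (vertical axis, from 0) in every library of the 4 groups (horizontal axis), with mean and SD bars (n = 6). Control LPS replicate 4 is the single high control point for Gm9855 (1.97 CPM) and the low control point for 1190007I07Rik (3.18 CPM).

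Ano4 and Ntn4 differed by less. Ano4 encodes a membrane protein of the anoctamin family, and was at 21.9, 23.1 and 25.4 CPM in control and 19.5, 20.8 and 21.9 CPM in labelled libraries without LPS, and at 24.2, 25.8 and 28.2 against 21.8, 23.8 and 24.3 CPM under LPS (-0.16 ± 0.03, adjusted p = 0.0246). Ntn4 encodes netrin 4, a basement membrane protein related to laminins, and was at 7.36, 7.74 and 10.2 against 6.05, 7.13 and 7.52 CPM without LPS, and at 7.04, 8.14 and 8.96 against 5.81, 6.56 and 6.98 CPM under LPS (-0.27 ± 0.06, adjusted p = 0.0379). The Ntn4 ranges did not overlap under LPS. The Ano4 call was lost without control LPS replicates 2 or 4, control replicate 3 without LPS, labelled Abca7 replicates 4 or 6 without LPS, or labelled Abca7 LPS replicate 6 (adjusted p up to 0.0635). The Ntn4 call was lost in 13 of 24 such fits (up to 0.0936), without control LPS replicates 2, 4 or 5, labelled Abca7 LPS replicates 1, 2, 3, 5 or 6, labelled Abca7 replicates 4, 5 or 6 without LPS, or control replicates 3 or 5 without LPS. It was also lost without a filter on low counts and with age as a factor or the GC index described below in the model.

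The level of Abca7 itself was higher, not lower, under the Abca7 label. Without LPS it was 26.6, 28.0 and 32.2 CPM in control and 29.9, 31.3 and 34.8 CPM in labelled libraries. Under LPS it was 20.6, 25.6 and 27.1 against 25.2, 30.0 and 31.5 CPM. The labelled libraries lay toward the upper end, 11 of 12 above the control median, and the ranges overlapped in both stimuli. Over all libraries it was at 26.5 ± 3.16 CPM (SD, n = 12) in control and 30.7 ± 2.52 in labelled mice, a difference of 0.21 ± 0.05 (adjusted p = 0.0462). Exact permutation p-values were 0.0238 without LPS and 0.00866 under LPS (0.0476 and 0.0260 adjusted over the library measures). Those measures include genes chosen for their small p in these data, which can lower the adjusted values. The permutation tests used the same libraries as the edgeR test and are no separate support.

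The genotype label names Abca7 but gives no direction for its RNA level, and groups are named here by label only. Counts were summed over all exons of Abca7, so a deletion of some exons on 1 chromosome copy need not show in them, and this check of the labels is limited. The difference was 0.19 to 0.23 when each library was left out in turn. Its adjusted p was above 0.05 in 16 of these 24 fits (up to 0.106), and stayed below it only without control LPS replicates 2, 5 or 6, control replicate 4 without LPS, labelled Abca7 replicates 1, 2 or 3 without LPS, or labelled Abca7 LPS replicate 5. No 50-base sequence of Abca7 occurs in another gene, and no annotated gene overlaps its span.

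No other gene close to Abca7 passed. Of 95 other genes tested with midpoints within 1 Mb of that of Abca7, 0 passed in edgeR (0.240% of all genes did). An unadjusted p below 0.05 was found for 10 of them (10.5%, against 10.9% of all genes), with a median difference of 0.03. Both are near the shares over all genes. The 5 nearest protein-coding genes before it, Arid3a (0.11 ± 0.06), Wdr18 (0.00 ± 0.03), Grin3b (0.04 ± 0.10), Tmem259 (0.05 ± 0.03) and Cnn2 (-0.03 ± 0.07), had adjusted p-values of 0.517 to 0.991. The 5 after it, Hmha1 (0.18 ± 0.08), Polr2e (0.04 ± 0.03), Gpx4 (-0.00 ± 0.03), Sbno2 (0.01 ± 0.07) and Stk11 (-0.00 ± 0.02), had values of 0.399 to 0.995. Hmha1, the next gene downstream, was at 6.13, 6.33 and 6.75 CPM in control and 6.26, 6.78 and 7.21 CPM in labelled libraries without LPS, and at 2.70, 3.22 and 3.97 against 3.10, 3.56 and 5.98 CPM under LPS, ranges that overlapped in both stimuli.

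Away from chromosome 10, the named genes that fell are given by role, starting with ion channels of neurons. Gabrb2, the beta 2 subunit of the GABA-A receptor, was at 159.0, 171.3 and 177.1 CPM in control and 137.0, 148.5 and 160.1 CPM in labelled libraries without LPS, and at 155.6, 172.7 and 182.2 against 147.3, 148.7 and 165.2 CPM under LPS. All 12 labelled libraries lay below the control median and 10 below every control library, and Gabrb2 fell by 0.19 ± 0.03 (adjusted p = 0.00396). Scn1a, the voltage-gated sodium channel subunit Nav1.1, was at 196.4, 204.8 and 222.2 against 172.5, 186.8 and 192.3 CPM without LPS, with no overlap, and at 196.5, 214.2 and 228.8 against 185.0, 187.2 and 209.2 CPM under LPS (-0.16 ± 0.03, adjusted p = 0.0210). Kcnh5, a potassium channel of the ether-a-go-go family, fell by 0.22 ± 0.04 (adjusted p = 0.00974) and did not overlap under LPS, with 22.0 to 24.2 CPM in labelled and 24.3 to 29.0 CPM in control libraries.

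Other synaptic and signalling genes fell by similar amounts. Cadps, which primes dense-core vesicles for release, was at 270.1, 274.6 and 283.7 CPM in control and 252.0, 256.4 and 263.8 CPM in labelled libraries without LPS, with no overlap, and at 270.5, 278.5 and 284.8 against 251.9, 264.5 and 273.2 CPM under LPS, where 1 labelled library reached the control range (-0.09 ± 0.02, adjusted p = 0.0294). Tenm3, a teneurin involved in synaptic partner matching, fell by 0.15 ± 0.03 (adjusted p = 0.0168), from 101.1 ± 4.53 (SD, n = 12) to 91.4 ± 3.84 CPM. Pde4d, a phosphodiesterase that breaks down cyclic AMP, was at 49.2, 52.1 and 57.1 against 44.1, 45.5 and 49.3 CPM without LPS and at 49.3, 51.0 and 52.5 against 43.0, 45.6 and 47.7 CPM under LPS. In 11 of 12 labelled libraries Pde4d was below every control library (-0.18 ± 0.03, adjusted p = 0.00243).

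Plcxd2, a gene with a phospholipase C X domain, had the smallest p off chromosome 10. It was at 136.3, 144.2 and 153.2 CPM in control and 113.9, 120.7 and 131.3 CPM in labelled libraries without LPS, with no overlap, and at 127.3, 140.6 and 149.3 against 119.9, 124.9 and 132.2 CPM under LPS (-0.20 ± 0.03, adjusted p = 0.00182). Its relative Plcxd3 also fell, by 0.26 ± 0.05 (adjusted p = 0.0358), from 11.4 ± 0.895 to 9.57 ± 1.24 CPM. Deptor, an inhibitor of the mTOR kinase, fell by 0.14 ± 0.03 (adjusted p = 0.0279), from 42.2 ± 2.20 to 38.3 ± 1.37 CPM. The potassium channel gene Kcnb2 (-0.22 ± 0.05, adjusted p = 0.0373) and the sodium-proton exchanger gene Slc9a7 (-0.18 ± 0.04, adjusted p = 0.0373) were also among the 22 that fell.

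Among the genes that rose, a pair of extracellular matrix genes was named by rank. Thbs3, a thrombospondin, was at 12.7, 14.9 and 15.6 CPM in control and 15.5, 17.2 and 19.7 CPM in labelled libraries without LPS, and at 14.4, 14.9 and 16.2 against 16.8, 17.5 and 19.1 CPM under LPS, where the groups did not overlap (0.24 ± 0.04, adjusted p = 0.0133). The Thbs3 span overlaps Mtx1. Adamts10, a secreted metalloprotease, was at 21.5, 22.2 and 24.7 against 22.1, 25.9 and 28.8 CPM without LPS and at 16.1, 17.3 and 19.5 against 19.6, 21 and 22.7 CPM under LPS, again without overlap (0.23 ± 0.04, adjusted p = 0.0129).

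Ccdc108, named Cfap65 in newer annotation and linked to cilia and flagella, rose by 0.34 ± 0.05 (adjusted p = 0.00396). It was at 7.51, 8.01 and 8.48 CPM in control and 8.87, 10.9 and 12.8 CPM in labelled libraries without LPS, with no overlap, and at 7.43, 8.47 and 10.1 against 9.24, 9.90 and 11.0 CPM under LPS. Akap8, a nuclear anchor of protein kinase A, rose by 0.13 ± 0.02 (adjusted p = 0.0133), from 73.5 ± 4.53 to 80.5 ± 4.33 CPM. Its neighbour on chromosome 17, Akap8l, rose by 0.18 ± 0.04 (adjusted p = 0.0321), from 89.5 ± 6.60 to 101.6 ± 7.74 CPM. For both genes all 12 labelled libraries lay above the control median, and 4 lay above every control library.

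Noncoding and pseudogene loci made up part of the rise. Meg3, an imprinted long noncoding RNA on chromosome 12, was at 4197, 4519 and 4611 CPM in control and 4274, 5178 and 5246 CPM in labelled libraries without LPS, and at 3681, 4243 and 4661 against 4606, 4893 and 5087 CPM under LPS. It rose by 0.19 ± 0.03 (adjusted p = 0.0203), with 10 of 12 labelled libraries above every control library. Gm26906 (0.20 ± 0.04, adjusted p = 0.0373) and Mir1906-1 (0.18 ± 0.04, adjusted p = 0.0464) lie within the span of Meg3 and share 96.2% and 100% of their 50-base sequences with other genes, so these 3 loci do not count as independent genes. Snhg11, a small nucleolar RNA host gene that the annotation used here types as protein-coding, rose by 0.13 ± 0.03 (adjusted p = 0.0373), from 2054 ± 127.1 to 2253 ± 70.7 CPM.

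Of the remaining named genes, Slc2a4rg-ps, a transcribed pseudogene, rose by 0.27 ± 0.05 (adjusted p = 0.0210), from 7.97 ± 1.04 to 9.60 ± 1.14 CPM. Gm7694, which overlaps Nos1ap, rose by 0.33 ± 0.06 (adjusted p = 0.0188), from 3.87 ± 0.421 to 4.85 ± 0.374 CPM, and did not overlap without LPS. Several other genes that passed share sequence with a neighbour and are uncertain: Gm20605 shares 93.6% of its 50-base sequences, 67.5% with Lrch4, 4932441J04Rik shares 46.9% with Pcdh7 and Gm26794 shares 35.8% with Kcnj3. The annotated span of Agrp runs across Ctcf, and Foxp3 overlaps Ccdc22 and Ppp1r3f, so without a stated strand setting their reads cannot be told from those of these neighbours.

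**Figure D4:**
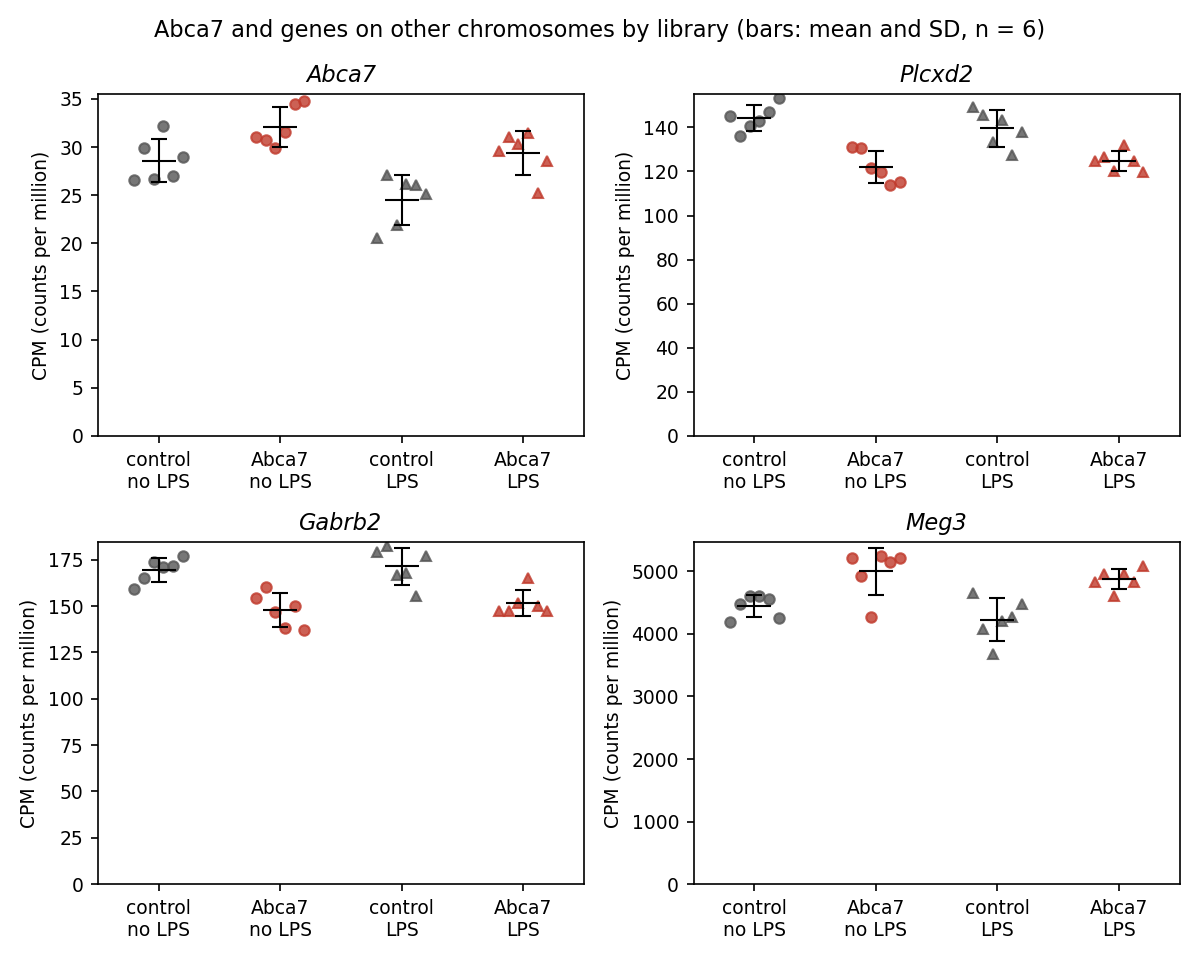
Each panel plots the CPM of Abca7 or of a gene on another chromosome (vertical axis, from 0) in every library of the 4 groups (horizontal axis), with mean and SD bars (n = 6). Abca7 and Meg3 are higher and Plcxd2 and Gabrb2 lower in libraries labelled Abca7, and the ranges of Abca7 overlap in both stimuli.

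Calls off chromosome 10 differed in how they held when 1 library was left out. Of the 53 genes, 13 passed in all 24 such fits, 6 higher and 7 lower, 4 of them on chromosome 10: Gm9855, Tdg, 1190007I07Rik and A930033H14Rik. The other 9 were Plcxd2, Pde4d, Ccdc108, Gabrb2, Kcnh5, Adamts10, Thbs3, Akap8 and Tenm3. The Gm7694 call was lost without labelled Abca7 replicate 6 without LPS (adjusted p = 0.0545), those of Meg3 and Slc2a4rg-ps without that library or replicate 4 of its group (up to 0.0546 and 0.0556), and that of Scn1a without that library or labelled Abca7 LPS replicate 1 (up to 0.0546). The Deptor call was lost without labelled Abca7 replicates 4 or 6 without LPS, labelled Abca7 LPS replicates 1 or 6 or control LPS replicate 4 (up to 0.0643), and the Cadps call without any of these 5 or control LPS replicates 2 or 3 (up to 0.0613). Leaving out control LPS replicate 4 and labelled Abca7 LPS replicate 4 together ended the calls of Ano4, Ntn4, Gm7694, Meg3, Slc2a4rg-ps, Deptor, Cadps, Spp1 and Abca7 among the named genes. All 53 genes had the same sign in the 9 mice of 55 days and in the 9 mice of 56 days, which are among the libraries that chose the genes, so that the same sign is favoured, where of the named genes only Gm9855 passed, at 55 days.

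The genes that rose and fell differed in length and base composition. The 31 that rose spanned a median of 13 kb with a median GC content of 54.0% in their longest transcript, and the 22 that fell spanned 148.5 kb with 47.0% GC, against 16 kb and 49.4% over all genes tested. A span above 100 kb was found for 0 of the 31, 14 of the 22 (63.6%) and 2522 of all genes (11.6%). The wider sets with an unadjusted p below 0.05 differed in the same direction, with 14.2 kb and 53.4% GC for 1237 higher and 47.3 kb and 46.5% GC for 1177 lower genes.

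As a measure of libraries rather than genes, an index was taken as the mean log2 CPM of the 10% of genes with the longest span minus that of the 10% with the shortest, and likewise for GC content, both chosen after seeing the data. The span index was 1.51 to 1.59 in control and 1.47 to 1.57 in labelled libraries without LPS (exact permutation p = 0.132, 0.211 adjusted over the library measures), and 1.48 to 1.58 against 1.43 to 1.54 under LPS (0.128, adjusted 0.211). The GC index gave exact permutation p-values of 0.658 and 0.245 (adjusted 0.790 and 0.346). With the span index in the model 56 genes passed, 23 of them among the 53, and with the GC index 43 passed, 34 of them among the 53. Of the named genes, the span index ended the calls of A930033H14Rik, Gm7694, Scn1a, Slc2a4rg-ps, Deptor and Abca7, and the GC index those of Ntn4 and Abca7.

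**Figure D5:**
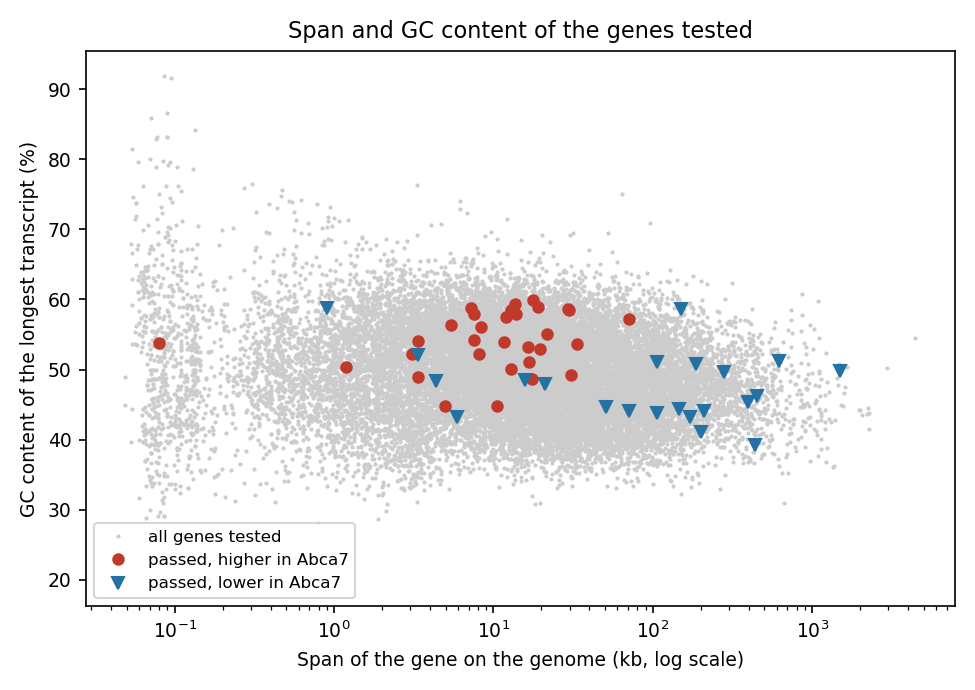
Each point is a gene, with its span on the genome in kb (horizontal axis, log scale) and the GC content of its longest transcript in percent (vertical axis); grey points are all genes tested, red circles the 31 that rose and blue triangles the 22 that fell. The red circles all lie below 100 kb, and 14 of the blue triangles lie above it.

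The pathways named in the title of the study, microglial inflammation and membrane trafficking, were read through 18 lists. Of their 377 distinct members tested, Abca7 and Spp1 passed (0.531%, against 0.240% of all genes), and the median difference of all genes tested was 0.00. At the share over all genes a list of 15 to 36 members would be expected to hold no call, so the counts of 0 that follow say little about a list. Of 17 lipid transporter genes of the ABCA and ABCG families tested, Abca7 rose and none fell (median -0.01). Abca5 (-0.11 ± 0.02, adjusted p = 0.0639) and the cholesterol exporter gene Abca1 (-0.17 ± 0.05, adjusted p = 0.111) did not pass. Abca8b was at 0.12 ± 0.04 (adjusted p = 0.160).

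Microglial and inflammatory lists had medians near 0. Of 20 homeostatic microglia genes 0 passed (median 0.03), with Tmem119 at 0.20 ± 0.07 (adjusted p = 0.219) and the transcription factor gene Sall1 at -0.31 ± 0.14 (adjusted p = 0.401). The Tmem119 average joined 0.04 without LPS and 0.37 under LPS, and that of Sall1 joined -0.26 and -0.37. Neither gene passed the interaction test. Of 21 disease-associated microglia genes 1 fell (median -0.04), Spp1, which encodes the secreted phosphoprotein osteopontin. Spp1 was at 8.43, 9.11 and 14.2 CPM in control and 7.07, 8.21 and 9 CPM in labelled libraries without LPS, and at 10.9, 14.1 and 16.9 against 9.39, 9.91 and 12.7 CPM under LPS, overlapping in both. It fell by 0.38 ± 0.08 (adjusted p = 0.0373). That call was lost in 14 of 24 fits that left out 1 library (up to 0.0916), without labelled Abca7 replicates 1, 2, 4, 5 or 6 without LPS, control replicates 2 or 6 without LPS, control LPS replicates 2, 3, 4 or 5, or labelled Abca7 LPS replicates 1, 3 or 6. It was also lost with age as a factor in the model. The receptor gene Trem2 was at 0.03 ± 0.06 (adjusted p = 0.906).

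The LPS receptor and its targets did not pass. In the list of CD14, TLR4 and NF-kB signalling 0 of 23 genes passed (median -0.05), with Cd14 at -0.22 ± 0.17 and Tlr4 at -0.16 ± 0.12 (both adjusted p = 0.693). Of 24 cytokine and chemokine genes 0 passed (median 0.02). For Cxcl2 the average of 1.13 ± 0.82 (adjusted p = 0.668) joined 2.75 without LPS and -0.49 under LPS. No gene passed the interaction test, so this gap did not pass either. Of 28 interferon-stimulated genes 0 passed (median -0.01), of 16 complement genes 0 (median -0.02), with C4a at 0.28 ± 0.07 (adjusted p = 0.0720), of 20 MHC presentation genes 0 (median 0.00) and of 27 reactive astrocyte genes 0 (median -0.03).

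Of 36 endosomal and membrane trafficking genes 0 passed, with a median of -0.02 and 4 at an unadjusted p below 0.05. The clathrin heavy chain gene Cltc was at 716.0 ± 21.3 CPM (SD, n = 12) in control and 674.9 ± 19.3 CPM in labelled mice (-0.09 ± 0.02, adjusted p = 0.0638), and the sorting receptor gene Sorl1 at 374.3 ± 26.0 and 348.4 ± 14.7 CPM (-0.10 ± 0.03, adjusted p = 0.127). The endosomal genes Rab5a and Rab7 and the retromer gene Vps35 each lay at -0.04. Of 26 lysosome genes 0 passed (median -0.00), of 15 lipoprotein and LXR genes 0 (median -0.00), of 21 cholesterol synthesis genes 0 (median -0.03), and of 30 mouse counterparts of Alzheimer risk genes only Abca7 (median -0.00), with Apoe at 0.03 ± 0.04 (adjusted p = 0.859).

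In the lists outside these themes, too, no member passed among 20 immediate early genes (median 0.02), 19 circadian clock genes (median -0.01), 28 nuclear-encoded oxidative phosphorylation genes (median -0.01) or 15 heat shock genes (median -0.01).

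Marker genes were read for the makeup of the tissue, and in bulk tissue fewer cells of a type and less RNA per cell cannot be told apart. Summed markers of neurons (6742 to 7601 CPM over all libraries), astrocytes (4094 to 4876) and oligodendrocytes (4199 to 6128) were high in every library, so the defining markers of brain tissue were present. Of the 140 distinct members of the 17 marker lists tested, 0 passed in edgeR (0.240% of all genes did). Medians were -0.03 for neurons, -0.01 for astrocytes, 0.04 for microglia, -0.05 for oligodendrocytes, 0.02 for their precursors, 0.08 for endothelium, 0.01 for pericytes and smooth muscle, 0.04 for meningeal fibroblasts, 0.13 for ependyma and 0.13 for erythrocytes. They were -0.18 for neutrophils, with 3 of 8 members tested, -0.05 for monocytes, 0.14 for lymphocytes, with 2 of 8 members tested, 0.05 for striatum, -0.17 for thalamus and -0.01 for hippocampus.

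Choroid plexus markers were summed because their level varied widely between libraries. In the comparison over both stimuli 0 of the 10 markers passed, 6 had an unadjusted p below 0.05 (10.9% of all genes did), all higher, and the median was 0.52. Their sum was at 17.5, 28.8 and 317.0 CPM in control and 65.4, 458.1 and 520.1 CPM in labelled libraries without LPS, and at 198.7, 308.0 and 568.0 against 38.8, 316.0 and 451.6 CPM under LPS. Exact permutation p-values were 0.0173 and 0.552 (0.588 and 0.824 adjusted over 34 sums). None of the 10 was at 0 on average. The marker transthyretin, Ttr, was at 4.93, 12.8 and 261.0 CPM in control and 48, 392.4 and 449.5 CPM in labelled libraries without LPS. For Ttr alone, exact permutation p-values were 0.0173 without LPS and 0.643 under LPS (0.0377 and 0.790 adjusted over the library measures). Over both stimuli Ttr passed in edgeR with surrogate variables (1.84, adjusted p = 0.0140), but not with the DESeq2 test or with age as a factor. The 261.0 CPM belonged to control replicate 1, against 4.93 to 19.7 CPM in the other 5, and the 48 CPM to labelled Abca7 replicate 1, against 176.8 CPM or more. Under LPS, labelled Abca7 LPS replicate 6 was at 24.3 CPM against 230.2 to 380.6 CPM. Without these libraries in turn, 45, 58 and 20 genes passed. With the Ttr level in the model 42 of the 53 genes still passed, and of the named genes Deptor and Abca7 (0.21 ± 0.06, adjusted p = 0.0617) did not. Summed monocyte markers under LPS were at 113.5, 118.5 and 124.8 CPM in control and 102.5, 108.4 and 123.3 CPM in labelled libraries (exact permutation p = 0.0390, 0.663 adjusted over 34 sums).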

How the data were processed

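Cortical RNA of 24 mice was sequenced, 1 library each. The authors deposited raw read counts per gene, whole numbers without normalization, made with MAP-RSeq 2.1.1 per the series design text and STAR 2.5.2b on mm10 per the submitters' processing notes. Not given in the sources used here were the annotation release, the strand setting and the treatment of reads with several matches. All columns belonged to the series. Genes with at least 10 counts in at least 6 libraries were kept and totals scaled by TMM. A model with 1 coefficient per group was fitted in edgeR 4.0.16 (R 4.3.3), and the mean of both within-stimulus genotype differences was tested by the two-sided quasi-likelihood F test, with Benjamini-Hochberg adjustment over 22096 genes and a threshold of 0.05. The standard error is the log2 difference divided by the square root of F. The interaction came from the same fit, and each stimulus was also fitted on its 12 libraries. Single library values were compared by two-sided exact permutation tests. Levels are CPM with TMM factors and no prior count. Log2 CPM with a prior count of 2 was used for indices, the Ttr covariate, counts of genes without overlap and the search for single far values. Total counts of 48149131 to 75741388 per library limit precision for genes of few reads. Overlaps, GC content, sequences and shared 50-base sequences came from GENCODE M21, which holds 98% of the deposited identifiers, 78.8% of these with identical coordinates.

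Named genes are Abca7, up to 15 genes on chromosome 10 and 15 elsewhere with the smallest p among those that passed at 1 CPM or more in either genotype, the 5 tested protein-coding neighbours on either side, members of lists that passed, and genes passing both main effect and interaction, of which there were none. Other genes that passed and are named were chosen after their values were seen. The comparison and its 35 lists were chosen with earlier results of these data known. Alternatives were DESeq2 1.42.0 (test, or size factors only), other filters, an additive model, covariates (age, Ttr, surrogate variables from sva 3.50.0), single ages, removal of ribosomal RNA repeats and leaving out each library. The fitting code was tested on simulated data.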

Additional observations from a re-analysis of the deposited data

Results flagged for a closer look

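For 33 named genes the 6 libraries of each group were searched for a single value far from the others, 132 groups in all. The gap of the extreme library to the next one, divided by the whole range, was taken on log2 CPM with a prior count of 2. It exceeded 0.625 in 12 of them, where chance gives about 1 in 20 groups. Values are printed below as CPM. On the log2 scale, Gm9855 in control LPS replicate 4 (1.97 CPM, next 0.259) did not exceed this limit. No value was left out for this reason.

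On chromosome 10, Gm9855 was at 0.0355 CPM in control replicate 3 without LPS (next 0.0964), Tdg at 26.0 CPM in control replicate 1 without LPS (next 30.6) and Ntn4 at 10.2 CPM in the same library (next 7.93). 1190007I07Rik was at 3.18 CPM in control LPS replicate 4 (next 4.24) and A930033H14Rik at 1.59 CPM in labelled Abca7 replicate 1 without LPS (next 3.34). Among neighbours of Abca7, Tmem259 was at 64.9 CPM in control LPS replicate 1 (next 69.9) and Sbno2 at 31.8 CPM in labelled Abca7 LPS replicate 4 (next 54.9).

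On other chromosomes, Gabrb2 was at 165.2 CPM in labelled Abca7 LPS replicate 4 (next 151.9), Adamts10 at 24.7 CPM in control replicate 4 without LPS (next 22.5) and Meg3 at 4274 CPM in labelled Abca7 replicate 3 without LPS (next 4933). Deptor was at 40.0 CPM in labelled Abca7 replicate 1 without LPS (next 37.8) and Spp1 at 12.7 CPM in labelled Abca7 LPS replicate 2 (next 10.4).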

How the results depend on the processing

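The count of 53 genes was within 1.5 times with DESeq2 size factors (55), filterByExpr (57), 10 counts in 12 libraries (57), the additive model (55), without ribosomal RNA repeats (54) and with the GC or span index (43 and 56). It was 298 with the DESeq2 test (148 higher, 150 lower), 35 without a filter, 115 with age as a factor, 299 with Ttr (116 higher, 183 lower, against 31 and 22), 553 with 5 surrogate variables (194 higher, 359 lower), 1 in mice of 55 days, 1 in mice of 56 days (fewer samples in both) and 17 without control LPS replicate 4 and labelled Abca7 LPS replicate 4 together, of which 15 were among the 53. The cause of the other changes was not tested. Leaving out 1 library gave 13 to 121 genes: 13 to 35 without labelled Abca7 replicates 4, 5 or 6 or control replicates 2, 3 or 6 without LPS, labelled Abca7 LPS replicates 1, 2 or 6, or control LPS replicates 2, 3 or 4, and 82, 90 and 121 without labelled Abca7 LPS replicate 4, labelled Abca7 replicate 3 without LPS and control LPS replicate 6.

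The 7 genes on chromosome 10 became 19 with DESeq2, 19 with Ttr, 32 with surrogate variables, 1 at 55 days and 0 at 56 days, and 4 to 11 without 1 library (4 without control replicate 3 without LPS, labelled Abca7 replicates 4 or 6 without LPS, labelled Abca7 LPS replicate 6 or control LPS replicate 4; 11 without control LPS replicate 6). The 2 list members became 9 with DESeq2, 1 without a filter, 5 with age, 9 with Ttr, 14 with surrogate variables, 0 at 55 or 56 days, 1 with the GC index, 1 with the span index, 0 without the pair of libraries, and 0 to 4 without 1 library. The interaction, 0 in edgeR, had 1 gene at 55 days, 1 at 56 days and 0 to 7 without 1 library (7 without control replicate 1 without LPS). The genotype difference without LPS had 7 genes in place of 3 when all 24 libraries shared a fit.

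The Abca7 difference of 0.21 was 0.21 without a filter (adjusted p = 0.0522), 0.21 with Ttr (0.0617), 0.22 at 55 days (0.411), 0.15 at 56 days (0.389), 0.20 with the GC index (0.0735), 0.20 with the span index (0.100), 0.21 without the pair of libraries (0.0736), and 0.19 to 0.23 without 1 library. No named gene that passed changed sign in these fits, but neighbours of Abca7 that did not pass did (Wdr18, Grin3b, Gpx4, Sbno2 and Stk11). Lower calls outnumbered higher ones with DESeq2, Ttr and surrogate variables (above). The same held without a filter (18 against 17) and without the pair of libraries (10 against 7). It also held when labelled Abca7 replicate 6 without LPS was left out (7 against 6). The indices and the pair left out were chosen after seeing the data. No paired analysis was possible because the labels give no replicate numbers that groups share.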

Other observations

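With 5 surrogate variables in the model, 14 of 506 distinct list members passed (2.77%), against 553 of all 22096 genes (2.5%), so the share in the lists is near that over all genes. Among the 14, Gad1, a synthesis enzyme of the transmitter GABA, fell by 0.15 (adjusted p = 0.0115), the clathrin gene Cltc by 0.07 (adjusted p = 0.00858) and the sorting receptor gene Sorl1 by 0.12 (adjusted p = 0.00651). Cltc and Sorl1 also passed with the DESeq2 test (-0.09, adjusted p = 0.00217, and -0.10, adjusted p = 0.0434) and with age as a factor (-0.09, adjusted p = 0.0357, and -0.13, adjusted p = 0.0141), and did not pass in the comparison reported above. Abca5 passed with the same 3 alternatives, at -0.09, -0.11 and -0.11 (adjusted p = 0.00952, 0.00818 and 0.0419). With the Ttr level in the model, Cltc, Sorl1 and Abca5 did not pass. The 9 list members that passed there were Gad1, Ntng1, Abca1, Spp1, Calb2, Rora, Abca8b, C4a and Aqp4.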
